A study of Homo sapiens with 32 samples.

Results

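The genes described here are those of cholesterol and fatty acid synthesis, of the sterol regulatory element-binding proteins (SREBPs) and of the liver X receptors (LXRs). A list of 34 genes was matched to the probes of the array by gene symbol, older symbols included, and 31 genes were found, represented by 43 probes, of 16920 genes with a symbol in all. The other 3 (FDPS, FDFT1 and HSD17B7) had no probe under those names and were not analysed here. The cells of all groups were THP-1, a human monocytic leukaemia line, grown in 5% serum, kept in 0.1% serum overnight and then stimulated for 24 h. The 4 groups, of 8 arrays each, were LPS at 100 ng/ml with TGFβ1 at 1 ng/ml, LPS alone, TGFβ1 alone, each at the same concentration, and PBS as the control. LPS is a bacterial cell wall component sensed by TLR4, and TGFβ1 is a cytokine that signals through SMAD proteins. RNA was hybridised to Illumina HumanRef-8 arrays on 4 chips, with 2 arrays of each treatment on every chip. All 4 groups are 1 cell line. The labels do not tell separate cultures from repeat hybridisations, and the p-values therefore reflect array-to-array spread that can be technical. In bulk RNA, fewer cells of a kind and less RNA per cell cannot be told apart.

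Cells make cholesterol from acetyl-CoA through mevalonate, isoprenoids, squalene and lanosterol. When sterols are scarce, the escort protein SCAP carries SREBPs from the endoplasmic reticulum to the Golgi, where they are cut and released to switch on the genes of this route, and when sterols are plentiful, INSIG proteins hold SCAP back. LXRs answer to the opposite state: oxidised sterols bind them, and they switch on genes that export cholesterol, such as ABCA1 and ABCG1, and MYLIP, which marks a lipoprotein receptor for breakdown. Macrophages are known for both arms, since they take up lipoproteins and must dispose of the sterol.

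The sequences upstream of the start of 5 members are shown because SREBPs act with the factor NF-Y at such promoters. Each is the 250 bases before the start given by RefSeq (GRCh38.p14), 5′ to 3′ on the gene's strand. Capitals mark letters that match an NF-Y motif (CCAAT, or ATTGG where it lies on the other strand) or the sterol regulatory element (TCACNCCAC).
HMGCS1, chr5:43313413-43313662, minus strand: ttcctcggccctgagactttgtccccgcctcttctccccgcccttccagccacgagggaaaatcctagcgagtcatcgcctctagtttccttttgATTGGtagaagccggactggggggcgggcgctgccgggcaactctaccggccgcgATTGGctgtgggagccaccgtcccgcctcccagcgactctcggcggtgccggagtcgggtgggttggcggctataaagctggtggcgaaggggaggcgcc
LSS, chr21:46228775-46229024, minus strand: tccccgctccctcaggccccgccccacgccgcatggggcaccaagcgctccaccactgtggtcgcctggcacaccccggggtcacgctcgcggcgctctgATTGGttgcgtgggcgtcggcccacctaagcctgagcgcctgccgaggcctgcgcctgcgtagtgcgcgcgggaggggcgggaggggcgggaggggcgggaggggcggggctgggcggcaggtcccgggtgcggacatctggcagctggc
MSMO1, chr4:165327419-165327668, plus strand: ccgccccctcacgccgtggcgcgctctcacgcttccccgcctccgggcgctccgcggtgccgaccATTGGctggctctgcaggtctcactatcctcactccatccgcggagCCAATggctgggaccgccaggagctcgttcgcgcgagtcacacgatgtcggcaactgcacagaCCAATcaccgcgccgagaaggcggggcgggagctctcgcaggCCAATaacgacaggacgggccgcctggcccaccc
SREBF2, chr22:41832855-41833104, plus strand: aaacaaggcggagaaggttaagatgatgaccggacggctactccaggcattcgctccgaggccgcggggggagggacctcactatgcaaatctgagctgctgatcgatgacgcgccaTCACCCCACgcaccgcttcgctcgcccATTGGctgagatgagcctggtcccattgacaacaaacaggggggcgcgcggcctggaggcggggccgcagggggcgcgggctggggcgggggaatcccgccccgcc
ABCA1, chr9:104928156-104928405, minus strand: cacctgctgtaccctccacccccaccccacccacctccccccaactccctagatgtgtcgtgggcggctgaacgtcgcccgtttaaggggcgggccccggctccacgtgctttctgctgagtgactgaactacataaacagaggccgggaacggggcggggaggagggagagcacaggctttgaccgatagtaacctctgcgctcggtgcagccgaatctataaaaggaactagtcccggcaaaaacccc
HMGCS1 has 2 NF-Y matches, LSS has 1 and MSMO1 has 4, SREBF2 has 1 beside the only sterol regulatory element match, and ABCA1 has none. RefSeq promoters, searched on both strands from 250 bases before to 50 after the start, were at hand for 27 of the 31 genes. Those of 19 genes held the NF-Y letters: 4 of 5 mevalonate genes, 7 of 8 sterol genes, 3 of 7 regulators, 3 of 4 fatty acid genes and 2 of 3 LXR genes. Counted by promoter, 21 of 38 held them, against 34.6% of all 35116 promoters of that length. The sterol element was in 1 of 38, against 1.13% of all, and the LXR motif DR4, which is 2 copies of AGGTCA with 4 bases between them, in 0 of 38, against 0.0199% of all. A match is a run of letters and was not tested as a binding site. The search took only these exact letters, with N for any base, and an element that departs from them would be missed. These counts therefore do not show that sterol or LXR elements are absent, at ABCA1 or elsewhere.

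Values are the deposited intensities on a linear scale, and log2 changes are differences of log2(intensity + 50), with the standard error of a limma fit. A change was called where the Benjamini-Hochberg adjusted p over all 18388 probes tested was under 0.05. Between 12147 and 13432 probes were above background on each array, and the upper quartiles of the arrays lay between 345 and 381. Of the 31 members, 28 were above background on all 32 arrays, while ACAT2 was so on 31, STARD4 on 22 and SREBF2 on 15, so SREBF2 is near the limit of what the arrays show. All 31 passed the filter on dim probes. Where a gene had several probes, the brightest stands for it unless another is named. Of 9 monocytic markers, 8 were above background on all 32 arrays and MPO on 17. Of 23 markers of other lineages, 13 were above background on no array and NKG7 was so on all 32. The summed intensity of the monocytic markers was 55690 to 69282 with LPS+TGFβ1, 53986 to 70535 with LPS, 44917 to 54537 with TGFβ1 and 32230 to 40873 with PBS. That of the other lineages was 1420 to 2250, 1798 to 2441, 1162 to 1500 and 1054 to 1441 in the same order. ITGB2 was the largest part of the monocytic sum, averaging 42450 with LPS and 22281 with PBS. ITGAM, SPI1, CSF1R, FCGR1A and CD68 were also higher with LPS than with PBS. LYZ (156 against 423), CEBPA (6970 against 8507) and MPO (31.2 against 148) were lower. NKG7 was the largest part of the other sum, averaging 1174 with LPS and 513 with PBS. The part of either sum in the results below was not tested.

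The arrays of a single treatment did not form 1 cloud for most of these genes, and this split is described before the treatment effects. HMGCS1, which makes the precursor of mevalonate, shows it in the order of the replicate numbers 1 to 8. With LPS+TGFβ1 its intensities were 17909, 4810, 20149, 16852, 4981, 5115, 20001 and 5118. With LPS alone they were 18162, 4924, 18265, 18758, 5300, 5007, 17780 and 4900. With TGFβ1 alone they were 13919, 3097, 12985, 14330, 3482, 3960, 3102 and 3852, and with PBS 11171, 2500, 12795, 11886, 2510, 2241, 2884 and 3235. In every treatment the arrays numbered 1, 3 and 4 were high and those numbered 2, 5, 6 and 8 were low. Number 7 was high with LPS+TGFβ1 and with LPS and low with TGFβ1 and with PBS. In each treatment the lowest array of the first set was more than 3 times as bright as the brightest of the second, and no array lay between.

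ABCA1, the pump that hands cellular cholesterol to lipid-poor apolipoprotein, ran the other way on the same arrays. With LPS+TGFβ1 its intensities, numbers 1 to 8, were 1081, 4364, 1208, 1217, 4524, 4752, 1508 and 5108. With LPS they were 992, 5416, 934, 1014, 5676, 6077, 1236 and 6154. They were 368, 1143, 302, 341, 1354, 1497, 1453 and 1411 with TGFβ1, and 227, 1001, 253, 222, 998, 1020, 950 and 1503 with PBS. The arrays that were high for HMGCS1 were the low ones for ABCA1, number 7 included. With LPS, numbers 1, 3, 4 and 7 were at 934 to 1236 and the others at 5416 to 6154.

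**Figure D1:**
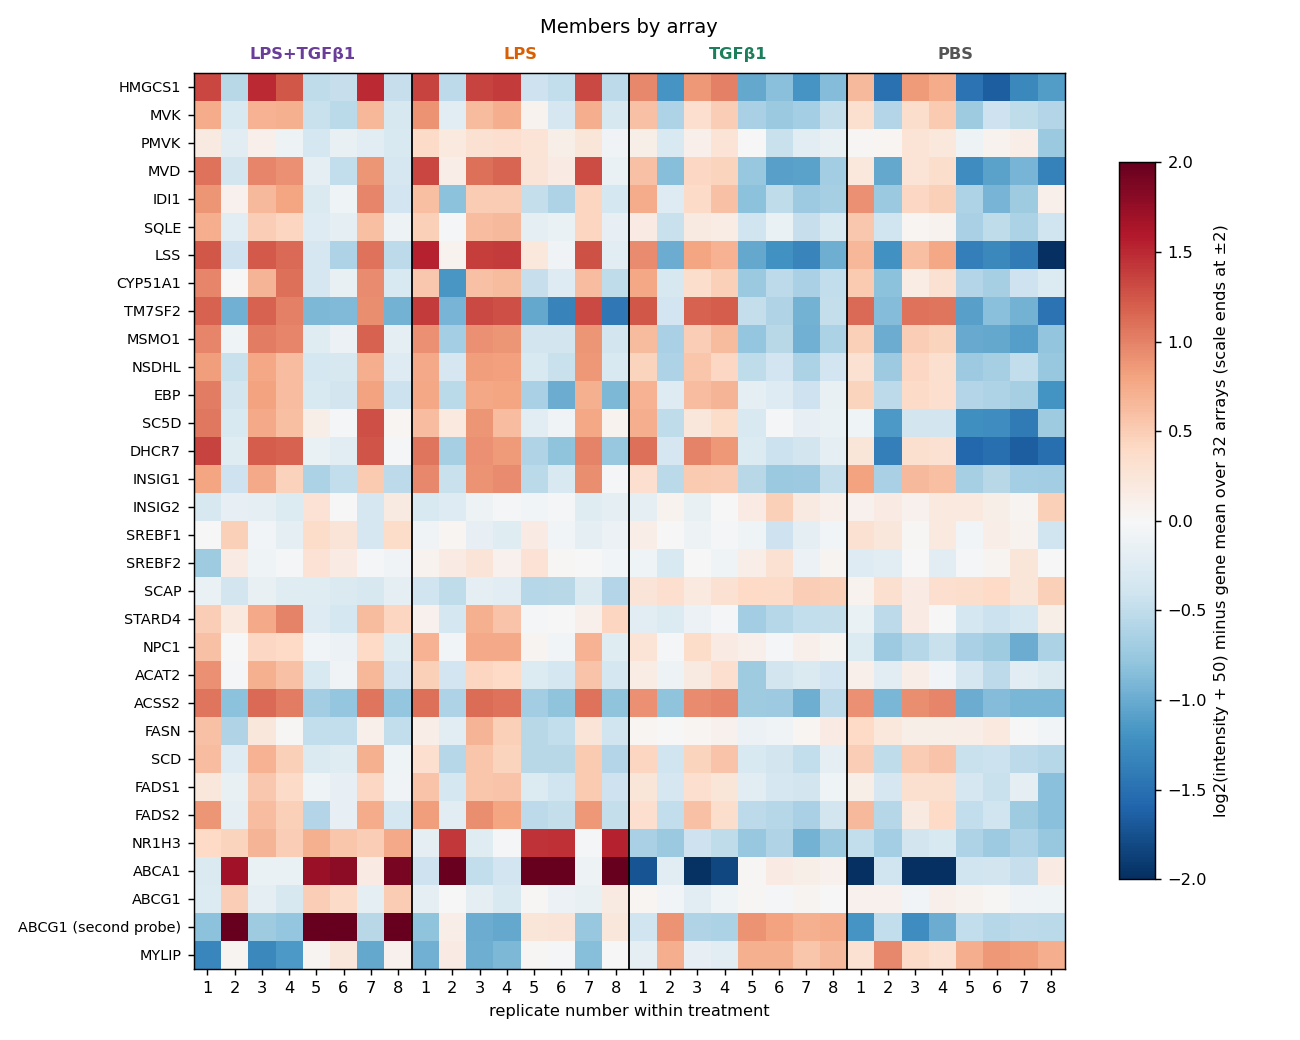
Each row is a member and each column an array, ordered by treatment and replicate number; colour gives log2(intensity + 50) minus the gene's mean over 32 arrays, ending at 2 in both directions. In every treatment the arrays numbered 1, 3 and 4 are red for most synthesis genes and blue for ABCA1 and the second ABCG1 probe, and number 7 is red only with LPS and with LPS+TGFβ1.

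The split can be described through the labels, since numbers 3 and 4 lay on chip 2 and numbers 5 and 6 on chip 3. Over all 4 chips, 27 of 31 members differed between chips (limma F test, adjusted p under 0.05), against 48.2% of all probes. Chips 2 and 3 were then fitted alone, with 1 mean per treatment and chip over 16 arrays. They were taken after the split had been seen, because each holds arrays of 1 kind only, so the differences between them below describe the split and are no independent test of it. Averaged over the 4 treatments, 23 of the 31 members were higher on chip 2 and 6 were lower, against 20.4% and 43.2% of all probes (63.6% in either direction). By rank, both chip 2 arrays lay above both chip 3 arrays in all 4 treatments for 22 members, against 7.39% of all probes, and below in all 4 for 2 members, ABCA1 and MYLIP, against 12% of all. On chip 1, which held numbers 1 and 2, number 1 minus number 2 had the sign of chip 2 minus chip 3 for 29 of those 29 members with LPS+TGFβ1, 29 with LPS, 26 with TGFβ1 and 26 with PBS. On chip 4, number 7 minus number 8 had it for 28 with LPS+TGFβ1 and 27 with LPS, but for 5 with TGFβ1 and 16 with PBS. The upper quartiles of the arrays were 364 to 381 on chip 2 and 355 to 373 on chip 3. Why the arrays differ was not tested.

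All 5 mevalonate genes and all 9 sterol genes with a probe were higher on chip 2. Among the mevalonate genes, HMGCS1 differed by a log2 of 1.98 ± 0.05, MVD, which forms isopentenyl diphosphate, by 1.26 ± 0.06, IDI1, the isomerase of that product, by 1.09 ± 0.06, MVK, the first kinase of mevalonate, by 1.03 ± 0.06 and PMVK, the second kinase, by 0.26 ± 0.07. TM7SF2, a sterol reductase, had the largest difference of the sterol genes at 2.06 ± 0.06, and its intensities on chip 2 were 2588 to 3219 where those on chip 3 were 468 to 898. LSS, which closes the ring of lanosterol, followed at 1.71 ± 0.06 and DHCR7, the last reductase on the way to cholesterol, at 1.53 ± 0.05. MSMO1, NSDHL and EBP, which act between lanosterol and the late sterols, and CYP51A1, the lanosterol demethylase, lay between 1.00 and 1.29. SC5D, the sterol desaturase, was 0.72 ± 0.06 and SQLE, the squalene epoxidase, 0.63 ± 0.05 higher. The other probes of LSS (1.05 and 0.91) and the second probe of MSMO1 (1.22) went the same way, and the dimmest MSMO1 probe was above background on no array.

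Averaged over the treatments, all 6 fatty acid and acetyl-CoA genes were also higher on chip 2. ACSS2, which makes acetyl-CoA from acetate, differed by 1.81 ± 0.04 through its brightest probe and by 0.48 ± 0.07 through another, which was above background on 3 of the 8 arrays of chip 3, and its dimmest probe was above background on no array. FADS2 and FADS1, the desaturases of polyunsaturated fatty acids, differed by 1.01 ± 0.06 and 0.69 ± 0.05, SCD, the desaturase of saturated ones, by 0.93 ± 0.05, ACAT2, which condenses acetyl-CoA, by 0.71 ± 0.06 and FASN, the fatty acid synthase, by 0.45 ± 0.05. For FASN the mean log2 with PBS was 13.66 on chip 2 and 13.70 on chip 3. The chips were furthest apart for it with LPS, at 14.12 and 13.02. The regulators were not uniform. INSIG1, itself an SREBP target, was 1.23 ± 0.06 higher, as were STARD4, a cytosolic sterol carrier (0.71 ± 0.05), and NPC1, which moves cholesterol out of lysosomes (0.41 ± 0.05). STARD4 was above background on 8 of 8 chip 2 arrays but on 3 of 8 chip 3 arrays, so the size of its difference depends on the offset. INSIG2 was lower (-0.20 ± 0.06), and SREBF1 (-0.11 ± 0.06) and SCAP (0.04 ± 0.05) did not pass. SREBF2 was at 27.1 to 57.3 on chip 2, above background on 4 of 8 arrays, and at 37.7 to 61.1 on chip 3, above background on 6 of 8. Its fitted difference of -0.16 ± 0.06 depends on the offset of 50 and sets no limit on that mRNA.

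Averaged over the 4 treatments, all 4 genes of the LXR group were lower on chip 2, but NR1H3 and ABCG1 were not so by rank in every treatment. ABCA1 differed by -2.07 ± 0.05 and MYLIP by -0.92 ± 0.05, while NR1H3, the receptor LXRα itself, differed by -0.27 ± 0.05 and ABCG1, which exports cholesterol to mature lipoprotein particles, by -0.27 ± 0.05 through its brightest probe. By mean log2, NR1H3 was lower on chip 2 than on chip 3 with LPS (9.35 against 10.95) and slightly with LPS+TGFβ1 (10.08 against 10.13). With PBS (9.16 against 8.82) and with TGFβ1 (9.03 against 8.81) it was higher on chip 2. A second ABCG1 probe passed the background level on 0 of 8 chip 2 arrays and 6 of 8 chip 3 arrays, and another on 1 of 8 and 4 of 8, so their differences have no exact size.

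**Figure D2:**
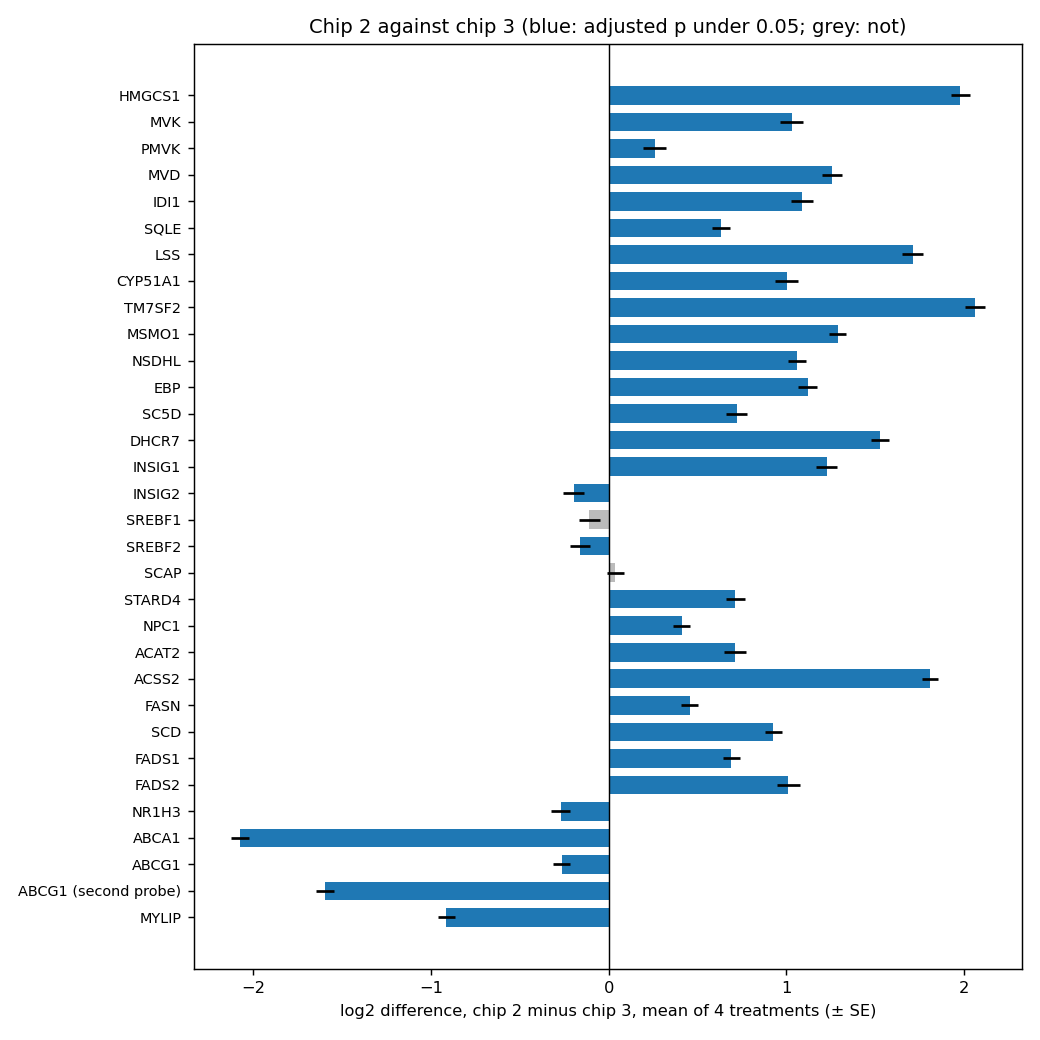
Bars are the log2 difference between chip 2 and chip 3, averaged over the 4 treatments, with the standard error of the fit (16 arrays, 2 per treatment and chip). Synthesis genes extend to the right, up to 2.06 for TM7SF2, and ABCA1 (-2.07) and MYLIP to the left. The second ABCG1 probe also lies to the left, but it was above background on no chip 2 array, so its bar has no exact length.

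LPS alone was compared with PBS first over all 32 arrays. It raised 8 of the 31 members and lowered 3, against 20.9% and 21% of all probes (41.9% in either direction), and the median log2 change of the members was 0.38 against 0.05 over all probes. In the synthesis route 1 of 5 mevalonate genes and 4 of 9 sterol genes rose and none fell, no fatty acid gene of 6 was called, among 7 regulators and transporters 1 rose and 2 fell, and of 4 LXR genes 2 rose and 1 fell. Number 7 was a high array for HMGCS1 with LPS and a low one with PBS. For members that show the split, the pooled changes therefore mix it with the treatment. For DHCR7, LPS minus PBS was 2.64 at number 7 and 0.55 to 0.96 at the other numbers. For ABCA1 it was 0.36 at number 7 and 1.70 to 2.52 at the others. The same mix enters LPS+TGFβ1 against PBS and against TGFβ1, and its share in any change was not tested.

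MVD had intensities of 511 to 1488 (median 976) with LPS and 189 to 727 (median 261) with PBS. Its log2 change was 1.27 ± 0.32 (adjusted p = 0.00165), and the groups overlapped. LSS had intensities of 2250 to 7625 (median 4704) with LPS and 585 to 4502 (median 1068) with PBS, a log2 change of 1.36 ± 0.44 (adjusted p = 0.0127). This call of the brightest LSS probe was lost without number 7 (adjusted p = 0.0511) and without chip 4 (0.0945). The other LSS probes changed less, by 0.55 ± 0.25 (adjusted p = 0.0782, not called) and 0.59 ± 0.24 (0.045). SC5D was at 2095 to 4605 (median 3319) with LPS and 896 to 2326 (median 1293) with PBS and rose by 1.17 ± 0.22 (adjusted p = 4.8e-05), a call kept without any 1 chip or number. DHCR7 (0.97 ± 0.38, adjusted p = 0.0411) and SQLE (0.45 ± 0.18, adjusted p = 0.0396) passed narrowly. Of the 8 fits that each left out a number, 3 still called DHCR7 and 2 still called SQLE, with adjusted p-values of up to 0.159 for DHCR7 and 0.129 for SQLE. DHCR7 was lost without chips 1, 3 or 4, and SQLE without chips 2, 3 or 4. HMGCS1, whose arrays are given above, averaged 11637 ± 7066 with LPS and 6153 ± 4830 with PBS (SD, n = 8 each), and its change of 1.03 ± 0.48 did not pass (adjusted p = 0.0865). By number, its LPS array was higher than its PBS array in 8 of 8, though the numbers were not taken as pairs. Within chips 2 and 3, where the spread was smaller, its rise was called, as given below.

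Of the 7 regulators and transporters, the 3 that were called did not overlap between LPS and PBS. SCAP was at 743 to 989 (median 819) with LPS and 1191 to 1607 (median 1435) with PBS, and fell by 0.71 ± 0.07 (adjusted p = 9.86e-11), which is 1.64-fold lower. NPC1 was at 705 to 1454 (median 1132) with LPS and 398 to 683 (median 518) with PBS, and rose by 0.95 ± 0.14 (adjusted p = 8.12e-07). INSIG2 was at 237 to 295 (median 271) with LPS and 319 to 442 (median 340) with PBS, and changed by -0.33 ± 0.09 (adjusted p = 0.00308). INSIG1 (0.45 ± 0.30, adjusted p = 0.244), STARD4 (0.38 ± 0.16, 0.0586), SREBF1 (-0.14 ± 0.10, 0.282) and SREBF2 (0.16 ± 0.10, 0.227) did not pass.

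Of the LXR group, ABCA1 had the largest change of any member, 1.91 ± 0.51 (adjusted p = 0.00235), a 3.76-fold rise. NR1H3 was at 558 to 2047 (median 1262) with LPS and 376 to 532 (median 418) with PBS, and rose by 1.24 ± 0.21 (adjusted p = 8.11e-06). MYLIP was at 330 to 792 (median 526) with LPS and 877 to 1412 (median 1198) with PBS and fell by 1.08 ± 0.24 (adjusted p = 0.00032). Neither NR1H3 nor MYLIP overlapped between the groups. In all, 5 members (SCAP, NPC1, INSIG2, NR1H3 and MYLIP) did not overlap, against 18.6% of all probes. ABCA1 and MYLIP, both LXR targets, thus changed in opposite directions with LPS, although both were lower on chip 2 than on chip 3.

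**Figure D3:**
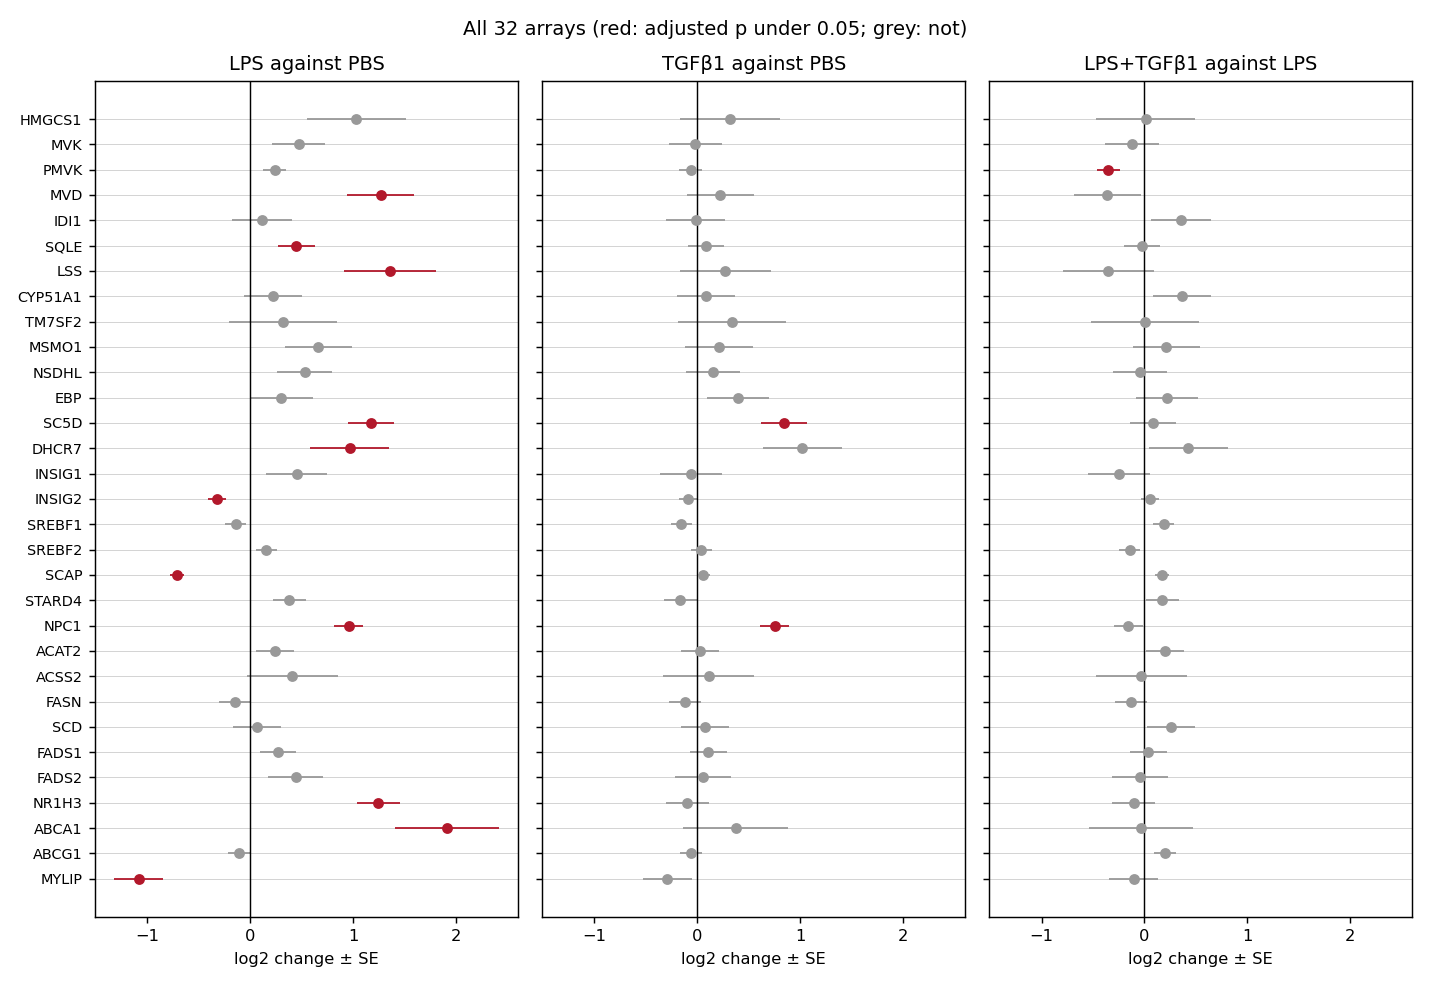
Points are log2 changes with standard errors over all 32 arrays, for LPS against PBS, TGFβ1 against PBS and LPS+TGFβ1 against LPS, and red points have an adjusted p under 0.05. Red points number 11, 2 and 1 in the 3 panels, and the error bars of HMGCS1, TM7SF2 and ABCA1 are wider than those of SCAP or INSIG2.

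Within a chip the changes with LPS could be read against a smaller spread. In the fit of chips 2 and 3, LPS raised 17 members and lowered 3 on chip 2, against 21.5% and 16.1% of all probes, and raised 13 and lowered 3 on chip 3, against 20.4% and 21.4% (41.7% in either direction). HMGCS1 rose on both, by 0.58 ± 0.11 on chip 2 (adjusted p = 0.00035) and by 1.10 ± 0.11 on chip 3 (1.6e-07). SQLE (0.57 and 0.42), MSMO1 (0.42 and 0.65), NSDHL (0.46 and 0.32), SC5D (1.12 and 1.08), DHCR7 (0.57 and 0.83) and STARD4 (0.56 and 0.38) were raised on chips 2 and 3 alike, as were MVD, LSS, NPC1 and ABCA1. SCD, ACSS2, IDI1, PMVK, TM7SF2, FADS1, SREBF1, SREBF2 and INSIG2 were called on neither.

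The LPS effect itself differed between chips 2 and 3 for 11 members, 5 with a higher value on chip 2 and 6 with a lower one, against 10% and 9.39% of all probes. Over all 4 chips, of which chips 1 and 4 hold high and low arrays together, no member and 0% of all probes differed in the F test, and 2 of 31 members were at an unadjusted p under 0.05, against 9.16% of all probes. NR1H3 had the largest difference. Its intensities with LPS were 585, 1864, 558, 652, 1920, 1926, 661 and 2047, numbers 1 to 8, and with PBS 460, 399, 510, 532, 417, 387, 419 and 376. On the LPS arrays numbered 1, 3, 4 and 7, where ABCA1 was low, NR1H3 was at 558 to 661, and on the others it was at 1864 to 2047. Its LPS effect was 0.19 ± 0.10 on chip 2 (adjusted p = 0.158) and 2.13 ± 0.10 on chip 3 (1.32e-11), a difference of -1.93 ± 0.15 (6.29e-08). With PBS the order was the opposite and the gap small, with numbers 1, 3 and 4 at 460 to 532 and the others at 376 to 419.

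FASN was called in opposite directions on chips 2 and 3. With LPS it was at 19098 and 16462 on chip 2 and at 8084 and 8408 on chip 3, and with PBS it was at 12897 and 12858 on chip 2 and at 12932 and 13558 on chip 3. It rose by 0.46 ± 0.10 on chip 2 (adjusted p = 0.00125) and fell by 0.68 ± 0.10 on chip 3 (1.76e-05), a difference of 1.14 ± 0.14 (1.41e-05), and over all arrays its change was -0.15 ± 0.16 (adjusted p = 0.473). EBP (0.42 on chip 2 and an uncalled -0.21 on chip 3, difference 0.63 ± 0.15), FADS2 (0.62 ± 0.18) and NPC1 (0.58 ± 0.14) also had a higher LPS effect on chip 2. SCAP fell on both and fell less on chip 2 (-0.46 against -0.94, difference 0.47 ± 0.13). LSS (-0.70 ± 0.17), ABCA1 (-0.65 ± 0.14), MVD (-0.55 ± 0.17), HMGCS1 (-0.52 ± 0.15) and MYLIP (-0.49 ± 0.14) had a lower one. For LSS this rests on its brightest probe. Its other probes differed by 0.21 (adjusted p = 0.416) and -0.20 (0.494) and were not called. ABCA1 rose on both, by 1.83 ± 0.10 on chip 2 and 2.48 ± 0.10 on chip 3, and MYLIP fell on both, by 1.29 ± 0.10 and 0.80 ± 0.10.

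**Figure D4:**
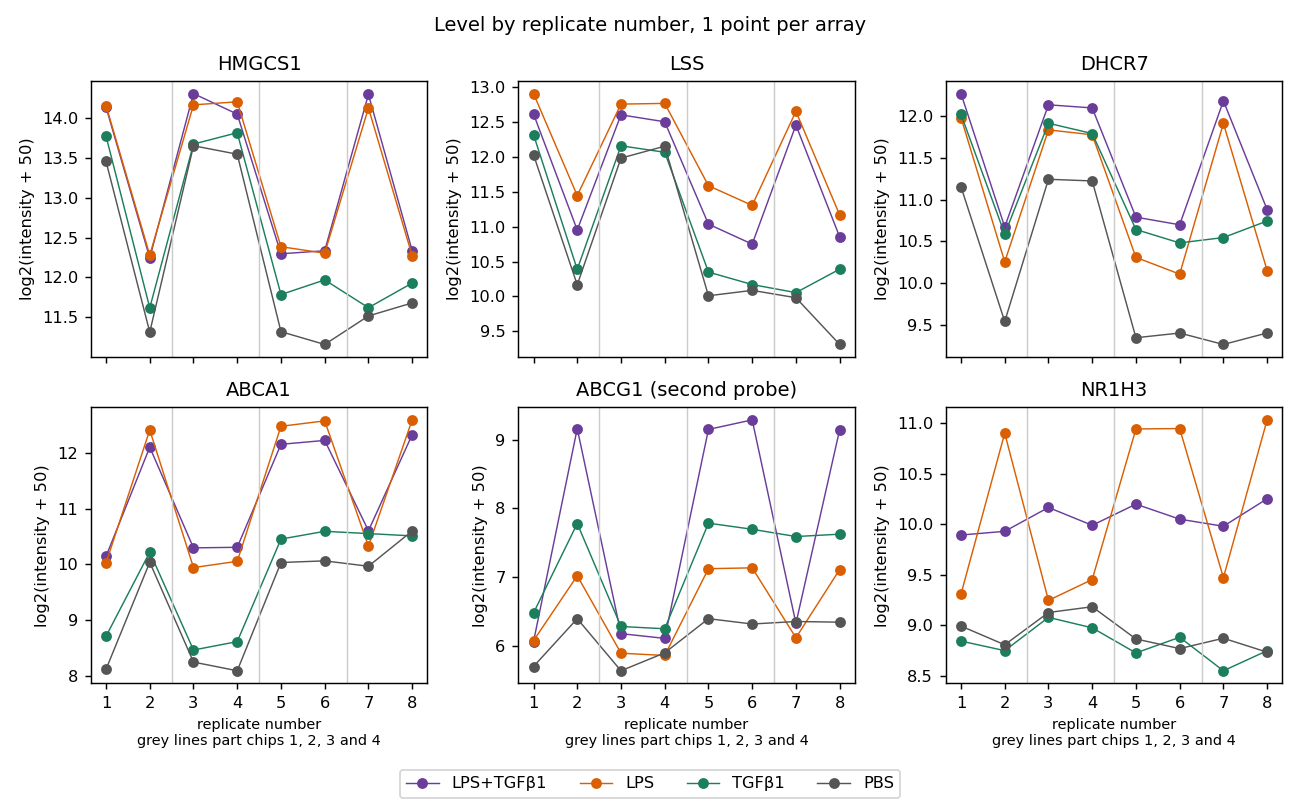
Each point is 1 array, as log2(intensity + 50) against replicate number, with 1 line per treatment; lines join arrays only to guide the eye. HMGCS1, LSS and DHCR7 are high at numbers 1, 3 and 4, ABCA1 and the second ABCG1 probe are low there, and NR1H3 swings with the number under LPS, between 558 and 2047 in intensity, but not under LPS+TGFβ1.

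TGFβ1 alone was compared with PBS in the same way. It raised 2 of the 31 members and lowered none over all arrays, against 7.54% and 5.7% of all probes, with 3 members at an unadjusted p under 0.05. NPC1 was at 813 to 1092 (median 904) with TGFβ1 and 398 to 683 (median 518) with PBS, without overlap, and rose by 0.75 ± 0.14 (adjusted p = 0.000153). It was the only member without overlap, against 5.9% of all probes. SC5D was at 1717 to 4101 (median 2332) with TGFβ1 and 896 to 2326 (median 1293) with PBS, and rose by 0.84 ± 0.22 (adjusted p = 0.00803), a call lost without chip 3 (0.0587). DHCR7 had a change of 1.02 ± 0.38 that did not pass (adjusted p = 0.0792). Within the chips it rose by 0.62 ± 0.10 on chip 2 (0.000207) and by 1.19 ± 0.10 on chip 3 (1.14e-07). On chip 2, TGFβ1 raised 4 members and lowered 1, against 7.97% and 6.15% of all probes (14.1% in either direction), and on chip 3 it raised 8 and lowered 0, against 6.69% and 4.39%. SC5D, DHCR7, NPC1 and ABCA1 (0.37 and 0.48) were raised on both. HMGCS1, TM7SF2, MSMO1 and EBP were raised on chip 3, and MYLIP was lowered on chip 2. The second MSMO1 probe was not called on chip 3 (0.25, adjusted p = 0.474). No member's TGFβ1 effect differed between the chips by its brightest probe, against 0.272% of all probes higher and 0.332% lower on chip 2. At an unadjusted p under 0.05 there were 5 of 31 members, against 7.72% of all probes.

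Arrays with both stimuli were set against LPS alone to see what TGFβ1 adds. Over all arrays 1 member of 31 was lower and none higher, against 10.1% and 8.19% of all probes. That member was PMVK, at 308 to 468 (median 354) with LPS+TGFβ1 and 382 to 547 (median 494) with LPS, with a change of -0.35 ± 0.11 (adjusted p = 0.0255). The call was lost without numbers 2, 4, 5 or 7, and without chips 1, 2 or 3, at adjusted p-values of up to 0.149. HMGCS1 averaged 11867 ± 7411 with LPS+TGFβ1 and 11637 ± 7066 with LPS (SD, n = 8 each), and its difference was -0.01 ± 0.11 on chip 2 and -0.03 ± 0.11 on chip 3.

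Within the chips the addition of TGFβ1 had effects that the pooled fit did not call. On chip 2 it raised 3 members and lowered 2, against 7.52% and 9.19% of all probes, and on chip 3 it raised 5 and lowered 5, against 9.9% and 10.1%. DHCR7 rose on both, by 0.31 ± 0.10 (adjusted p = 0.0378) and 0.54 ± 0.10 (0.000645). For 6 members the effect differed between the chips, 3 in each direction, against 3.97% and 4.04% of all probes (8.01% in either direction). NR1H3 with LPS+TGFβ1 was at 902, 927, 1100, 968, 1127, 1012, 961 and 1171, numbers 1 to 8, all within the gap between the low and the high LPS arrays. Compared with LPS it rose by 0.73 ± 0.10 on chip 2 (8.02e-05) and fell by 0.82 ± 0.10 on chip 3 (1.62e-05), a difference of 1.55 ± 0.15 (6.12e-06), and over all arrays its change was -0.11 ± 0.21 (adjusted p = 0.758). ABCA1 did likewise with smaller values, 0.30 ± 0.10 on chip 2 and -0.34 ± 0.10 on chip 3, a difference of 0.64 ± 0.14 (0.00752). STARD4 differed by 0.52 ± 0.15, EBP by -0.56 ± 0.15, FASN by -0.49 ± 0.14 and the brightest ABCG1 probe by -0.49 ± 0.14. The size for STARD4 depends on the offset, since it was above background on 3 of 8 chip 3 arrays.

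**Figure D5:**
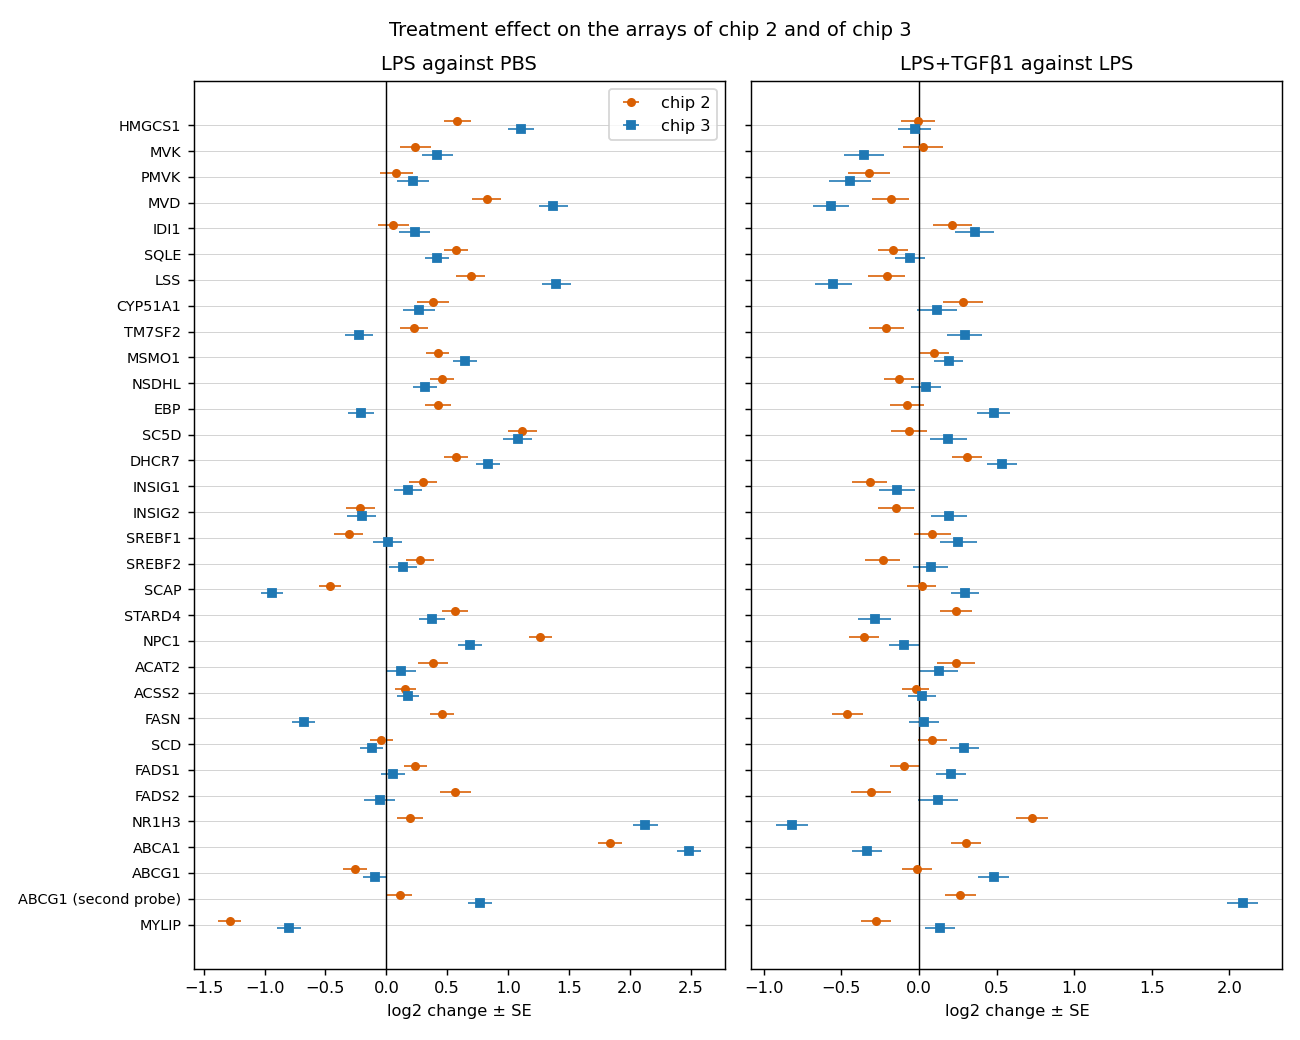
Points are log2 changes with standard errors on the arrays of chip 2 and of chip 3, for LPS against PBS on the left and LPS+TGFβ1 against LPS on the right. The chips part for NR1H3 and FASN, the second ABCG1 probe was above background on no chip 2 array, and SC5D, at 1.12 and 1.08 with LPS, lies together on both.

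ABCG1 has 5 probes on the array that do not tell the same story. The brightest was at 68 to 157 with LPS+TGFβ1, 69 to 116 with LPS, 75 to 102 with TGFβ1 and 89 to 106 with PBS, and was called in none of the 6 comparisons over all arrays. The second had intensities of 17, 522, 22, 19, 517, 574, 30 and 515 with LPS+TGFβ1, numbers 1 to 8, and of 17, 80, 9, 8, 89, 91, 20 and 88 with LPS. With TGFβ1 it was at 39, 170, 28, 26, 170, 157, 143 and 147, and with PBS its highest value was 34.2. It was above background on 4 of 8 arrays with LPS+TGFβ1, 4 with LPS, 5 with TGFβ1 and 0 with PBS. Within each treatment other than PBS, the arrays where it was bright were those where ABCA1 was bright. ABCA1 also split with PBS, where this second ABCG1 probe was above background on no array. With LPS+TGFβ1 it was at least 2.24-fold higher than with PBS (adjusted p = 0.00449), and another probe, above background on 5 of 8 LPS+TGFβ1 arrays, was at least 1.49-fold higher (0.0103). These bounds set the mean log2 of the treated arrays against the lowest signal above background on the PBS arrays. On chip 3 the second probe was 2.09 ± 0.10 higher with LPS+TGFβ1 than with LPS alone (adjusted p = 1.05e-10). On chip 2 it was above background on no array under any treatment, so no effect can be sized there and the chips cannot be compared for it. The other 2 probes were too dim to pass the filter. Which transcripts each probe reads was not tested.

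Compared with TGFβ1 alone, LPS+TGFβ1 raised 3 members and lowered 2 over all arrays, against 14.9% and 16.5% of all probes. NR1H3 was at 902 to 1171 (median 990) with LPS+TGFβ1 and 325 to 491 (median 395) with TGFβ1 and rose by 1.24 ± 0.21 (adjusted p = 1.36e-05). ABCA1 rose by 1.51 ± 0.51 (0.0206), a call lost without chip 1 or chip 3 (up to 0.0719), and STARD4 by 0.72 ± 0.16 (0.000609). SCAP was at 865 to 1036 (median 954) with LPS+TGFβ1 and 1301 to 1623 (median 1471) with TGFβ1 and fell by 0.60 ± 0.07 (7.45e-09), and MYLIP fell by 0.89 ± 0.24 (0.00362). NR1H3 and SCAP did not overlap, against 13.8% of all probes.

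Set against PBS, LPS+TGFβ1 raised 8 members and lowered 3, against 18% and 21.9% of all probes (39.9% in either direction). The comparison shares its PBS arrays with those of LPS and of TGFβ1. Higher were ABCA1 (1.88 ± 0.51), DHCR7 (1.39 ± 0.38), SC5D (1.26 ± 0.22), NR1H3 (1.14 ± 0.21), MVD (0.91 ± 0.32), MSMO1 (0.87 ± 0.33), NPC1 (0.80 ± 0.14) and STARD4 (0.55 ± 0.16), and lower were MYLIP (-1.18 ± 0.24), SCAP (-0.54 ± 0.07) and INSIG2 (-0.27 ± 0.09). MVD was lost without numbers 5 or 7 and chips 3 or 4, MSMO1 without numbers 2, 6 or 7 and chips 1, 3 or 4, DHCR7 without chip 4 and INSIG2 without chips 1, 2 or 4, at adjusted p-values of up to 0.177. The second MSMO1 probe was not called (0.67, adjusted p = 0.0979). DHCR7 was at 1582 to 4878 (median 3079) with LPS+TGFβ1 and 566 to 2372 (median 662) with PBS, and the groups overlapped. NR1H3, SCAP, NPC1 and MYLIP did not overlap, against 17.1% of all probes.

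The interaction, which is the LPS effect with TGFβ1 minus that without it, was called for 1 member over all arrays and was negative, against 4.46% of all probes lower and 2.82% higher (7.28% in either direction). NPC1 was at 700 to 1278 (median 982) with LPS+TGFβ1, 705 to 1454 (median 1132) with LPS, 813 to 1092 (median 904) with TGFβ1 and 398 to 683 (median 518) with PBS. Its interaction was -0.91 ± 0.20 (adjusted p = 0.00276), -1.13 ± 0.14 on chip 2 (5.55e-05) and -0.81 ± 0.14 on chip 3 (0.000704). Each stimulus alone raised NPC1, and the 3 stimulated groups overlapped one another. SC5D had the same sign and was called within the chips, at -0.73 ± 0.17 and -0.88 ± 0.17, but not over all arrays (-0.75 ± 0.32, adjusted p = 0.163). On chip 2 the interaction was positive for 1 member and negative for 2, against 1.58% and 3.42% of all probes, and on chip 3 for 2 and 8, against 5.56% and 6.52%. NR1H3 was at 0.86 ± 0.15 on chip 2 (0.00154) and -0.81 ± 0.15 on chip 3 (0.00132).

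Genes beside the members were counted in 5 further lists over all arrays. With LPS, of 9 LXR partners and further LXR targets tested 2 rose and 5 fell, of 13 further SREBP targets and lipogenic genes 2 rose and 1 fell, of 8 genes of SREBP activation and sterol-dependent breakdown 2 rose and 3 fell, of 11 genes of oxysterol and sterol handling 5 rose and 3 fell, and of 7 genes of prenyl and dolichol synthesis 1 rose and 1 fell. Over all probes 20.9% rose and 21% fell. CYP27A1, the mitochondrial sterol 27-hydroxylase that makes an LXR ligand, averaged 666 ± 69.9 with LPS and 132 ± 17.9 with PBS (SD, n = 8 each) and rose by 1.97 ± 0.07 (adjusted p = 1.29e-22). CH25H, the cholesterol 25-hydroxylase, averaged 195 ± 161 with LPS and 16.1 ± 10.3 with PBS and differed by 1.57 ± 0.28, but it was above background on 8 of 32 arrays, so this difference depends on the offset. VLDLR, a lipoprotein receptor, averaged 565 ± 287 with LPS and 2114 ± 355 with PBS and fell by 1.95 ± 0.19 (1.12e-10). ME1, which supplies NADPH for lipid synthesis, rose by 2.29 ± 0.15 and LPIN1, a phosphatidate phosphatase, by 0.94 ± 0.25, and IDH1 changed by -0.44 ± 0.09. In the LXR list ABCA7 (-1.06 ± 0.14), PLTP, a phospholipid transfer protein (-0.86 ± 0.13), and LPL, lipoprotein lipase (-0.61 ± 0.22), fell. ERLIN1 and ERLIN2, of the complex that takes part in sterol-dependent breakdown, changed by -1.23 ± 0.18 and -0.45 ± 0.10, VCP, the extracting ATPase, by 0.51 ± 0.06, and DHDDS, of dolichol synthesis, by 0.75 ± 0.07.

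With TGFβ1 alone the counts of the same lists were 3 up and 1 down for LXR partners and targets, none for SREBP targets, 1 up and 2 down for SREBP activation, 1 up and 1 down for sterol handling and 1 up for the prenyl list, against 7.54% up and 5.7% down over all probes. APOC1 and APOC2, apolipoproteins that LXRs control in macrophages, had the largest rises. APOC1 averaged 2112 ± 365 with TGFβ1 and 523 ± 161 with PBS and rose by 1.97 ± 0.17 (adjusted p = 6.1e-11), and APOC2 averaged 4673 ± 839 and 1378 ± 412 in that order and rose by 1.78 ± 0.21 (3.71e-08). LPL rose by 0.76 ± 0.22, NCEH1, a cholesteryl ester hydrolase, by 0.55 ± 0.13, and VLDLR fell by 0.93 ± 0.19. ERLIN2 (-0.34 ± 0.10), MBTPS1, the protease that first cuts SREBPs (-0.26 ± 0.07), UBE2G2, a ubiquitin-conjugating enzyme (0.26 ± 0.08), and DHDDS (0.25 ± 0.07) changed less. On adding TGFβ1 to LPS the counts were 3 up and 0 down, 0 and 1, 0 and 2, 2 and 3, and 0 and 1, in the order of the lists, against 8.19% and 10.1% over all probes. APOC2 (1.73 ± 0.21), APOC1 (1.38 ± 0.17) and PLTP (0.81 ± 0.13) rose, and VLDLR (-0.81 ± 0.19), CYP27A1 (-0.54 ± 0.07), ME1 (-0.48 ± 0.15), DHDDS (-0.37 ± 0.07), ERLIN2 (-0.28 ± 0.10) and MBTPS1 (-0.23 ± 0.07) fell. CH25H was also called lower, at 44.6 ± 26.4 with LPS+TGFβ1 and 195 ± 161 with LPS, but the size is uncertain since it was above background on 8 of 32 arrays. In LPS+TGFβ1 against TGFβ1 the counts were 1 up and 3 down, 1 and 1, 1 and 3, 4 and 2, and 1 and 0, where 14.9% of all probes rose and 16.5% fell. Against PBS they were 3 and 2, 2 and 2, 2 and 3, 5 and 2, and 3 and 0, where 18% rose and 21.9% fell. Against TGFβ1, the largest called changes of each list were LPL (-0.93), ABCA7 (-0.88) and SMPDL3A (0.77), then ME1 (1.95) and MID1IP1 (-0.58), ERLIN1 (-0.99), ERLIN2 (-0.39) and VCP (0.32), VLDLR (-1.83), CYP27A1 (1.52) and ACAT1 (-0.60), and PDSS1 (0.73). Against PBS they were APOC1 (1.96), APOC2 (1.53) and SMPDL3A (1.04), then ME1 (1.81), LPIN1 (0.94) and MID1IP1 (-0.47), ERLIN1 (-1.49), ERLIN2 (-0.73) and MBTPS1 (-0.55), VLDLR (-2.76), CYP27A1 (1.44) and NPC2 (0.60), and PDSS1 (0.84), DHDDS (0.38) and COQ2 (0.34). ME1 and CYP27A1 were higher and VLDLR was lower in LPS against PBS, in LPS+TGFβ1 against PBS and in LPS+TGFβ1 against TGFβ1. The interaction was called for PLTP (0.67 ± 0.18) and RXRA (-0.58 ± 0.18) of the first list, CYP27A1 (-0.45 ± 0.09) of the fourth and DHDDS (-0.62 ± 0.10) of the fifth, where 2.82% of all probes were higher and 4.46% lower.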

How the data were processed

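Values came from the series' value table, which holds intensity on a linear scale as deposited by the authors, with a column for each of the 32 arrays. Per the submitters' processing notes BeadStudio 3.2 was used, with no step named, and how background and normalization were handled is not given in the sources used. Array medians were 34.5 to 59.3 and the lowest value was -35.4, so the centring stays unknown. A non-normalized table with 64 columns under names that match no label was not used. Gene symbols came from the platform annotation (21826 of 24518 probes with 1 symbol, 2692 with none).

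Values were set to log2(intensity + 50), which understates changes of dim genes. The lowest 25% of probes by mean log2 were left out, which kept 18388. The probe of highest mean stands for a gene. Above background means over the mode of an array's dim values plus 3 SDs, taken from the part below that mode. limma 3.58.1 in R 4.3.3 fitted group means over all 32 arrays for 6 comparisons. Tests were two-sided, with no covariate and Benjamini-Hochberg over all kept probes at a threshold of 0.05. On simulated data over 18388 probes it recovered 97% of 200 simulated 2-fold changes of LPS against PBS. That share is no recovery rate for members whose arrays split within a treatment, such as HMGCS1 (standard error 0.48). Promoter sequences are RefSeq's. Precision is limited by how many arrays there are.

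The members and lists were chosen with earlier results of these data known. Every member is named, and of each further list the 3 largest called changes. Treatments and numbers are from the titles and chips from the descriptions; each treatment sat at fixed chip positions, which leaves treatment and position confounded (they cannot be told apart), and 4 LPS+TGFβ1 arrays carry positions already given to TGFβ1 arrays. Arrays with the same number were compared as deviations from group means. The fit of chips 2 and 3, the single chips, and the removal of PBS array 8 were added after the data were seen. Alternatives covered the offset, the filter, normalization, blocks, array weights, the probe and left-out arrays.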

Additional observations from a re-analysis of the deposited data

Results flagged for a closer look

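In 3 of 124 sets of 8 arrays examined (1 per member and treatment), 1 array lay far from the other 7 by Dixon's criterion, which chance gives for about 1 set in 20. PMVK on PBS array 8 was at 222, where the nearest PBS array was at 373. INSIG2 on the same PBS array was at 442, where the nearest was at 355. SREBF2 on LPS+TGFβ1 array 1 was at 5.24, where the nearest was at 34.7, close to background. The LPS effect on NPC1 differed with and without TGFβ1, by an interaction of -0.91 on the log2 scale (adjusted p = 0.00276).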

How the results depend on the processing

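The counts of called members were 11 for LPS against PBS, 2 for TGFβ1 against PBS, 1 for LPS+TGFβ1 against LPS, 5 against TGFβ1 and 11 against PBS, and 1 for the interaction. Other offsets, filters, normalizations, the second probe and fits of only the compared groups kept each count within 1.5 times. With the chip as a block, the counts were 17 for LPS, 9 for LPS+TGFβ1 against TGFβ1 and 17 against PBS. With array weights they were 27 for LPS, 11 for LPS+TGFβ1 against LPS, 10 against TGFβ1 and 18 against PBS, and 7 for the interaction. Same-numbered arrays correlated above 0.1 in 44 of 48 pairs (lowest -0.20, for number 7), and 15 of 32 arrays correlated best with their own number, so the numbers were not taken as pairs. With the replicate number as a block, the counts were 21, 3, 2, 17, 23 and 3 in the order above, and with that block and number 7 left out they were 21, 11, 9, 17, 24 and 7. Leaving out 1 number gave 8 to 11 for LPS, 2 for TGFβ1, 0 to 1, 5, 9 to 12 and 1 for the others in order; leaving out 1 chip gave 8 to 11, 1 to 2, 0 to 1, 4 to 5, 7 to 12 and 1. The arrays of chips 2 and 3 with a chip block gave 17, 5, 4, 13, 17 and 2. Chip 2 alone gave 20, 5, 5, 15, 18 and 3, and chip 3 alone 16, 5, 7, 14, 17 and 9. Chip 1 alone gave 0 in all 6 and chip 4 alone 1, 0, 0, 2, 1 and 0; both hold high and low arrays. On chip 2 alone FASN changed by 0.46 with LPS, NR1H3 by 0.73 for LPS+TGFβ1 against LPS and by 0.86 in the interaction, each opposite in sign to the value over all arrays; the cause was not tested. Of 4241 planned single-gene alternatives 0 reversed, 58 lost and 118 gained a call. The normexp correction planned on the non-normalized table was not run, since its columns match no label. Signal near background limits SREBF2, STARD4 and the dim ABCG1 probes.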
